A study of Mus musculus with 2 samples.

Results

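CTCF peaks deep inside the introns of very long genes were described in newborn mouse stomach. A peak was taken from the optimal list of the authors, which was made with IDR, a procedure that scores how reproducibly peaks are ranked. Membership of that list does not require a peak in each replicate list. Its summit had to lie in the body of an autosomal protein-coding gene of 300 kb or more in GENCODE M21, outside all annotated exons and more than 10 kb from every protein-coding transcription start site (TSS). Of 72514 optimal peaks on the 19 autosomes, 4935 (6.81%) met this rule. They lay in 522 of 541 such genes. The assay was ChIP-seq with a CTCF antibody on stomach tissue of strain B6NCrl at postnatal day 0. There was 1 group with 2 samples, labelled biological replicates 1 and 2. Both carry the same donor and tissue identifiers in the labels, so the spread between them may be technical. With 1 group there was no contrast between conditions, and values below are descriptions with no test. Whole stomach holds many cell types, and the lists do not say in which of them a site was occupied.

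CTCF is a zinc finger protein that binds a long, directional DNA motif. It halts the loop-extruding cohesin complex, so bound sites form loop anchors and insulators, and pairs whose motifs point toward each other are the usual anchors of a loop. Very long genes consist almost wholly of intron. Many encode adhesion proteins, receptors and channels of neurons, and a smaller number encode transcription factors and regulators of the cytoskeleton.

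The strongest of these sites show what such an intronic CTCF site looks like. The first 10 sequences below belong to the 10 peaks of highest signal. Fgfr2 gives the strongest peak of the gene with the second-highest count. The annotated bodies of Fgfr2 and Gm20388 contain 29 and 71 other coding genes, and no intron is named for their sites. Signal is the authors' peak-caller value, in caller units, and is compared only within a list. Each sequence is from GRCm38 (mm10), on the strand that reads the motif forward. Capitals mark the 19-position CTCF match, and the flanks are 25 bases on each side.
Iqsec1 intron 3, chr6:90737586-90737654, minus strand, signal 650.7: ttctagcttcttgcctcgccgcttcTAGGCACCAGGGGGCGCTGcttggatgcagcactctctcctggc
Lsamp intron 8, chr16:42165094-42165162, minus strand, signal 579.1: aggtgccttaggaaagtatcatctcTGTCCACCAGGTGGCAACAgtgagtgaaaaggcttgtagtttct
Gse1 intron 1, chr8:120319668-120319736, plus strand, signal 577.7: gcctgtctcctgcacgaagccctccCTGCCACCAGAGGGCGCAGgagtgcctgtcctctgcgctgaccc
Palld intron 11, chr8:61539983-61540051, plus strand, signal 576.1: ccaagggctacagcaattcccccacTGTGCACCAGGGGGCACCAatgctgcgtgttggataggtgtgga
Gm20388, chr8:121851129-121851197, plus strand, signal 571.2: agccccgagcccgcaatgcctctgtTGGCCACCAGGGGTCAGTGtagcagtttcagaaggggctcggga
Cacna1e intron 1, chr1:154786426-154786494, plus strand, signal 549.4: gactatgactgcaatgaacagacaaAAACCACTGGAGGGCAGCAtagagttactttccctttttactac
Rad51b intron 7, chr12:79612836-79612904, plus strand, signal 539.4: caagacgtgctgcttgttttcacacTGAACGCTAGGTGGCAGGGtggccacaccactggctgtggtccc
Dis3l2 intron 15, chr1:87042233-87042301, minus strand, signal 537.5: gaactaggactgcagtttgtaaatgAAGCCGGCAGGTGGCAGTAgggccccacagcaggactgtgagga
Ksr2 intron 2, chr5:117505312-117505380, plus strand, signal 529.3: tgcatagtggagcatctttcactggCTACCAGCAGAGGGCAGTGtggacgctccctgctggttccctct
Iqsec1 intron 3, second peak, chr6:90728817-90728885, minus strand, signal 512.4: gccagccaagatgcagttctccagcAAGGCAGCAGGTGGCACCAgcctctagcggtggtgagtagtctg
Fgfr2, chr7:132656183-132656251, plus strand, signal 508.5: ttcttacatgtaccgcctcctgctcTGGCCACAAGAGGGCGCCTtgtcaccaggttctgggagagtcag
All 11 held a match, against the matrix consensus TGGCCACCAGGGGGCACTA learnt from 990 of the 1000 strongest peaks of chromosome 1. The Cacna1e and Dis3l2 peaks lie on that chromosome, so their matches are not independent of the matrix. Both Iqsec1 peaks, 2 sites of 1 intron, and the Gse1, Rad51b, Ksr2 and Gm20388 peaks carried the motif on the strand of the gene. The Lsamp, Palld, Cacna1e and Dis3l2 peaks carried it on the opposite strand.

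Every one of these 10 peaks was also in both replicate lists. The Iqsec1 peak, in a gene for an exchange factor of the ARF GTPases, had a signal of 362 in replicate 1 and 291.8 in replicate 2. The peak of Lsamp, a neuronal adhesion gene, had 298.7 and 282.3. That of Palld, which encodes the actin-associated protein palladin, had 314.1 and 266.7. In each case the replicate 1 value was the higher, and the 2 lists are not scaled to each other. The Cacna1e peak, in a gene for a voltage-gated calcium channel, had 291.3 and 258.9. Rad51b, a recombination gene, had 289.5 and 254.6 at a site 315 kb from the nearest coding TSS (315321 bp), the most remote of the 10. The second Iqsec1 peak was the nearest to a coding TSS, at 12322 bp. The first Iqsec1, Lsamp and Gm20388 peaks lay 21061 to 21596 bp away, and the rest 47649 to 91380 bp.

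The strongest peak without a match, picked for display after the values were known, lay in the annotated body of Gm20388. It had a signal of 497.6, and its best score was 9.99 against a threshold of 12.2 and a highest possible score of 28.1. The 69 bases around its summit follow, with no capitals because no match was called.
Gm20388, chr8:124052246-124052314, plus strand: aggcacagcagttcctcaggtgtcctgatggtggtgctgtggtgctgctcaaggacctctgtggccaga

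Long-gene introns held fewer CTCF peaks per Mb than the introns of shorter genes. Density was counted over eligible sequence, meaning assembled bases that satisfy the same position rule as the peaks, which came to 276.6 Mb. The 4935 peaks gave 17.8 per Mb (95% Poisson interval 17.4 to 18.4, which covers counting error only). The replicate 1 list gave 17.3 per Mb and the replicate 2 list 18.0 per Mb, each cut to its 74283 strongest peaks. Coding genes of 100 to under 300 kb held 6914 such peaks at 32.0 per Mb, with 31.8 and 32.6 in the replicates. Genes under 100 kb held 6928 at 42.1 per Mb, with 41.8 and 42.5. Sequence outside coding gene bodies had 17.6 per Mb, with 17.3 and 17.8. Thus the long-gene value lay below both other intron classes by far more than the spread between replicates, and its difference from sequence outside coding genes was within that spread. With 1 group the differences were not tested over samples.

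**Figure D1:**
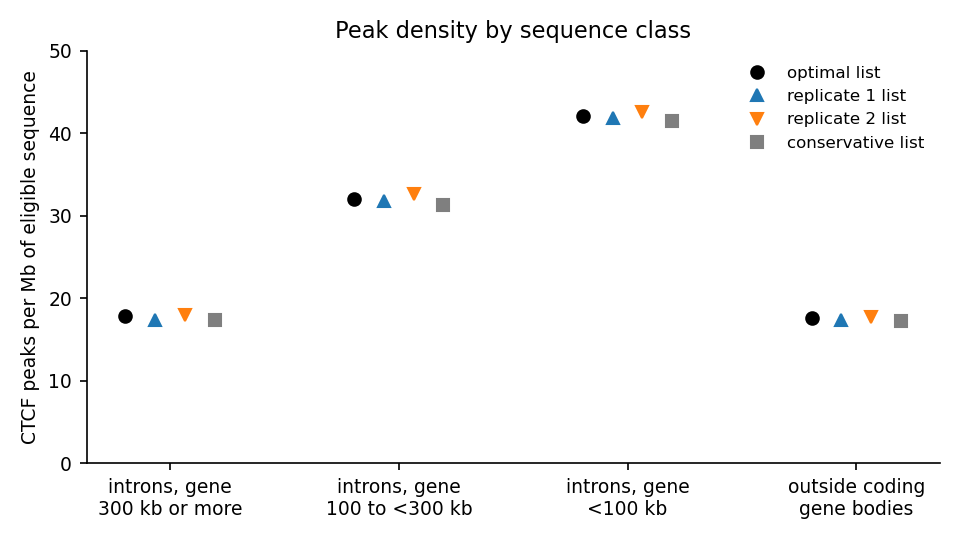
CTCF peaks per Mb of eligible sequence (y axis, from 0) in 4 sequence classes (x axis), with 1 point for each of 4 peak lists. In all 4 lists the introns of genes of 300 kb or more sit at 17.3 to 18.0 per Mb, below the introns of shorter genes and beside sequence outside coding genes.

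The underlying sequence differed between these classes as well. Eligible sequence of long genes was 40.7% GC, against 42.7% in genes of 100 to under 300 kb, 43.4% in genes under 100 kb and 40.7% outside coding genes. It held 78.7 motif matches per Mb outside chromosome 1, against 119, 163 and 88.9 in those classes. Of the 19909 matches in long genes, 16.6% (95% exact binomial interval 16.1 to 17.2%) had an optimal peak, against 19.9%, 20.8% and 15.3%. Over all matches, long-gene introns thus had the fewest per Mb, while the share under a peak was lowest outside coding genes. Outside masked repeats there were 47.5 matches per Mb in long genes, against 64.8, 75.6 and 43.6, and the shares under a peak were 20.05%, 24.0%, 27.9% and 22.6%. On that base the order of these 2 classes was turned, with the fewest matches outside coding genes and the lowest share in long genes.

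Density was also compared between long genes and genes of 100 to under 300 kb in the same ranges of GC content. The 541 long genes were divided by GC into 4 groups of equal size, and 1019 shorter genes with at least 100 kb of eligible sequence and no overlap with a long gene were placed in the same ranges. In the lowest range, up to 38.7% GC, long genes had 6.50 per Mb (95% Poisson interval 5.98 to 7.05) and the shorter genes 12.7 (11.2 to 14.3). In the second range the values were 12.5 and 18.2 per Mb, and in the third 21 and 26.8. In the highest range, from 43.3%, they were 38.0 (36.5 to 39.6) and 43.6 per Mb (42.0 to 45.2). Long genes were thus lower in all 4 ranges, and the replicate lists gave the same order in each. The ranges are broad, the highest running to 54.15%, and GC was not matched within them. The part of GC content in the difference was not tested. The density of long genes went up from range to range, from 6.32 to 36.8 per Mb in replicate 1 and from 6.71 to 37.7 in replicate 2.

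Density varied widely from gene to gene. The median gene had 7 peaks and 15.2 per Mb, the lower and upper quartiles were 7.79 and 28.1 per Mb, and the highest had 157 per Mb. A total of 193 genes held 10 or more peaks, 14 held 30 or more, and 25 held 1. Across the 541 genes, density in the replicate 1 list tracked density in the replicate 2 list with Spearman's rho 0.971 and Pearson's r 0.974. The counts of the replicates were equal in 203 genes and differed by at most 1 in 398, with a largest difference of 10. Density tracked the GC content of the gene's eligible sequence (rho 0.770, r 0.735) and its motif matches per Mb (rho 0.778, r 0.813). These 2 measures also tracked each other (rho 0.861), and all are descriptions over genes from 1 pair of libraries. With gene length the relation was weak (rho -0.24). Pooled density went from 23.1 per Mb in 202 genes under 400 kb to 14.9 in 55 genes of 1000 kb or more. The 55 include Gm20388 and Fgfr2, dense models whose annotated bodies hold many other coding genes. The median over genes went from 18.6 to 9.41 per Mb between these groups.

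**Figure D2:**
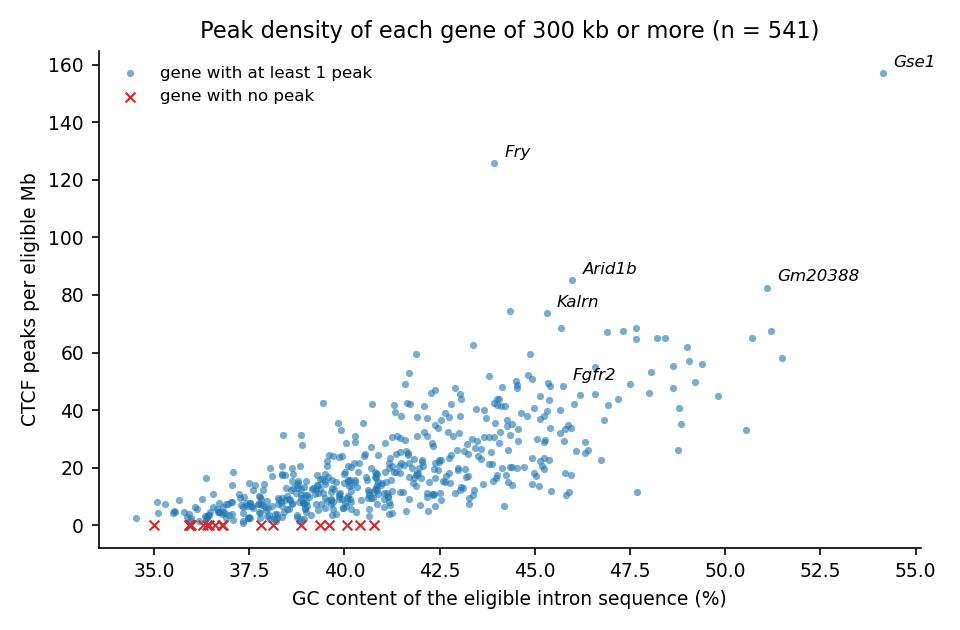
Peaks per eligible Mb (y axis) against the GC content of the eligible intron sequence in percent (x axis), 1 point for each of the 541 genes. Genes with no peak are red crosses, all at 40.8% GC or below, and Gse1 stands highest at 157 per Mb.

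The highest counts belonged to a mixture of very large gene models and peak-rich genes. Gm20388 held 231 peaks (82.5 per Mb), 220 in the replicate 1 list and 226 in the replicate 2 list, in an annotated body of 4435 kb (chr8:119910841-124345722). That body wholly contains 71 other coding genes, Gse1 among them, so its peaks are those of a gene-dense stretch of chromosome 8. Fgfr2, the gene of a fibroblast growth factor receptor, is likewise annotated over 2961 kb with 29 other coding genes inside, and it held 100 peaks, with 95 and 105 in the replicate lists. Among models that contain fewer than 6 other coding genes, Gse1 led with 46 peaks. Camta1, which encodes a calmodulin-binding transcription factor, followed with 44, with 42 and 44 in the replicates. Rbms3, an RNA-binding protein gene, held 42, with 38 and 46, yet its strongest peak reached only 163.2 where that of Camta1 reached 486. Nav2, a neuron navigator gene, held 39, Auts2, linked to neurodevelopmental disorders, held 37, and Rora, which encodes a nuclear receptor, held 36. In these last 3 genes the replicate counts ran from 33 to 42.

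The 8 genes of highest density include Gm20388, described above, and 7 others. Gse1 (chr8:120228456-120581390, plus strand) had 157 per Mb (95% Poisson interval 115 to 209), with 41 peaks in replicate 1 and 45 in replicate 2. Fry, whose product acts on microtubules and NDR kinases, had 34 peaks or 126 per Mb (87.0 to 176), with 35 and 36 in the replicates. Fry combined a GC content of 43.9% with 292 motif matches per Mb, where the median long gene had 72.9. Arid1b, a subunit gene of the BAF chromatin remodelling complex, had 28 peaks or 85.1 per Mb, 25 and 28 in the replicates. Atxn1, the gene of ataxin-1, had 29 peaks and 29 in each replicate (74.3 per Mb), and 25 of them held the motif. Kalrn, which encodes a guanine nucleotide exchange factor, had 34 (73.8 per Mb). Maml3, which encodes a Notch coactivator, had 24 (68.5 per Mb), only 8 with the motif, and Zbtb7c, a zinc finger gene, had 20 (68.4 per Mb), 9 with the motif. The 2 last genes thus reached a like density with a smaller share of motif-bearing peaks than Atxn1.

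At the other end, 8 genes of 511 to 1104 kb each held a single peak. Nrg3, which encodes a neuregulin ligand of the receptor ErbB4, had 1 peak in 1085 kb of eligible sequence, or 0.922 per Mb (95% Poisson interval 0.0233 to 5.14). That peak, of signal 90.6, was present in both replicates with 56.9 and 34.7. The lone peak of Grm5, a metabotropic glutamate receptor gene, was strong, at 346.1 with 188.2 and 157.4 in the replicates, and lay 514 kb from the start of the gene. Those of Mdga2, a synaptic adhesion gene (199.1), and Cntnap5c, a contactin-associated protein gene (192), were also above the median of 67.0 over all these peaks. By contrast, those of Malrd1 (22.2), Mgat4c (23.7) and Cpq (20.4) were near the weak end. Malrd1, a gene known for its part in bile acid control in the intestine, and Mgat4c, of a glycosyltransferase family, had no peak in the replicate 1 list and 2 in the replicate 2 list, and Cpq, a carboxypeptidase gene, had none in either. The peak of Cntnap5b (95.4) was the 1 of the 8 without a motif match.

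There were 19 long genes with no peak, 3.51% of the 541. Among the 1019 shorter comparison genes 67 had none, a background of 6.58%, in bodies with less eligible sequence. The 10 with most eligible sequence were Nkain3 (639.8 kb), Fstl5 (595.9 kb), Zfp804b (515.9 kb), Skint5 (507.2 kb), Edil3 (480.0 kb), Skint6 (462.5 kb), Dok6 (452.5 kb), Fam110b (408.6 kb), Klhl1 (400.1 kb) and Spock3 (378.6 kb). Skint5 and Skint6 belong to an immunoglobulin superfamily expressed in skin and thymus, Edil3 encodes an extracellular matrix ligand of integrins, and Spock3 encodes a proteoglycan. A count of 0 in Nkain3 allows up to 5.77 peaks per Mb, so the absence of a peak in 1 gene does not set it apart from genes with a few. Replicate 1 had no peak in 16 of the 19 genes and replicate 2 none in 17. In 12 of them neither the replicate lists nor the conservative list had one. Ube2e2, a ubiquitin-conjugating enzyme gene, was the most uneven, with 4 peaks in the replicate 1 list, 0 in replicate 2, 2 in the conservative list and 0 in the optimal list.

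The sequence of these 19 genes was poor in GC and in motifs. Their median GC content was 36.8%, within 34.99 to 40.8%, where the median of all long genes was 40.8%. They held a median of 42.3 motif matches per Mb, from 13.3 in Epha3 to 81.3 in Cntnap4, against 72.9 over all long genes. In all they held 320 matches in 7.62 Mb, none under an optimal peak because the genes were chosen for having none. In 11 of the 19 genes the body did hold optimal peaks nearer to a TSS or in an exon, 21 in all, with 5 of them in Dock3 and 4 in Fam110b.

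Gene groups differed in how their members were placed. The 14 lists were drawn up with earlier results of these data known, so their counts are descriptions and are read beside the median of 15.2 per Mb over all 541 genes. Neuronal genes of adhesion and guidance sat low. Of 31 contactin, neurexin and other adhesion genes, 8 lay above that median, their own median was 8.17 per Mb, and they ran from 0 in Cntn6 to 33.4 in Sdk1. Of 19 axon guidance genes, 4 lay above it, with a median of 5.91 and a range from 0 in Epha5 to 26.3 in Slit3, a repulsive guidance ligand. Of 18 receptor genes for glutamate, GABA and acetylcholine, 5 lay above it, from 1.99 in Grm5 to 46.1 in Grik4, a kainate receptor subunit. Cadherins and protocadherins (3 of 10 above, median 9.21) ran from 2.73 in Cdh8 to 56.0 in Cdh4. Extracellular matrix and proteoglycan genes (7 of 24 above, median 9.54) ran from 0 in Spock3 to 45.8 in Ltbp1, a latent TGF-beta binding protein gene. Genes of common fragile sites, regions that break under replication stress, had 4 of 18 above and a median of 9.12, from 2.57 in Lrp1b, a lipoprotein receptor family gene, to 52.0 in Rora.

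Synaptic scaffold and channel genes were near the middle. Of 21 scaffold and release genes, 12 lay above the median of all genes, from 3.53 in Pclo to 61.8 in Shank2, a postsynaptic scaffold. Of 29 ion channel genes, 15 did, from 4.08 in Kcnd2 to 49.8 in Kcnq1, a potassium channel gene. Of 6 receptor tyrosine phosphatase genes, 3 did, from 7.51 in Ptprd to 26.7 in Ptprg. These 3 lists had medians of 15.6, 15.4 and 15.02 per Mb.

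Regulatory and cytoskeletal genes sat high. Of 39 genes of the cytoskeleton and its regulation, 32 lay above the median of all genes and 22 at or above the upper quartile of 28.1, with a list median of 29.9, from 0 in Dock3 to 73.8 in Kalrn. Of 38 transcription factor genes, 28 lay above, with a median of 22.8, from 0 in St18 to 68.4 in Zbtb7c. Of 29 phosphodiesterase, kinase and phospholipid enzyme genes, 23 did, with a median of 24.1. The list ran from 7.31 in Inpp4b, a phosphoinositide phosphatase gene, to 48.3 in Fgfr2. The annotated Fgfr2 body contains 29 other coding genes and gave 100 of the 389 peaks of this list. Its value thus describes a wide stretch of chromosome 7 rather than a single kinase gene. RNA-binding protein genes had 5 of 7 above and a median of 42.2, from 6.83 in Khdrbs2 to 58.2 in Rbfox3. Smooth muscle genes, which match a main tissue of the stomach wall, had 14 of 18 above and a median of 20.1, from 7.30 in Cacna2d1 to 50.2 in Foxp1. The GC content moved in part with these groups, with a median of 38.8% in the adhesion list and 43.7% in the cytoskeleton list. The order was not the same throughout. Receptor tyrosine phosphatase genes, near the middle in density, had 42.7%, and smooth muscle genes, which sat high, had 41.1%. Both values lie in the third GC range, where the median over all long genes was 19.7 per Mb. The smooth muscle median of 20.1 was thus near that background, and the phosphatase median of 15.02 was below it. The part of GC content in the differences between lists was not tested.

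Distances between neighbouring peaks of a gene covered a wide range when pooled over genes. The pool joins genes of very different density, so spread within a gene was not separated from that between genes. Over 4419 neighbouring pairs the median distance was 22.1 kb, the lower and upper quartiles were 7.24 and 57.6 kb, and 10% were beyond 118 kb. The median was 22.7 kb in the replicate 1 list and 22.1 kb in the replicate 2 list. At the short end, 148 pairs (3.35%) lay under 1 kb apart and the closest were 199 bp apart. At the long end, 17 pairs were more than 500 kb apart. Among the longest stretches between neighbours, Erbb4, a receptor tyrosine kinase gene, had 914.5 kb (chr1:68150771-69065225), with no other optimal peak inside it. Lrrc4c, a netrin-G ligand gene, had 905.7 kb (chr2:96708143-97613800), with 1 other optimal peak, in an exon or within 10 kb of a TSS.

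The opposite pattern, many peaks in a short stretch, was clearest in 3 genes. In Gse1, 13 peaks lay within 49.9 kb (chr8:120277306-120327210), with signals from 7.30 to 577.7 and a median of 165.6. Of the 13, 9 were in both replicate lists, 8 carried the motif on the sense strand, 1 on the antisense strand, and 4 had no match. In Ksr2, the gene of a scaffold of the MAP kinase cascade, 11 peaks lay within 28.5 kb (chr5:117494167-117522670), from 18.8 to 529.3. All 11 held the motif, 8 sense and 3 antisense, and 10 were in both replicate lists. The 7 from the third to the ninth were all sense, so that most of the group pointed along the gene. In Arid1b, 11 peaks within 49.8 kb (chr17:5168256-5218029) had signals from 23.3 to 331.5 and all were in both lists. Their strands were mixed, with 3 sense, 4 antisense and 4 without a match.

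**Figure D3:**
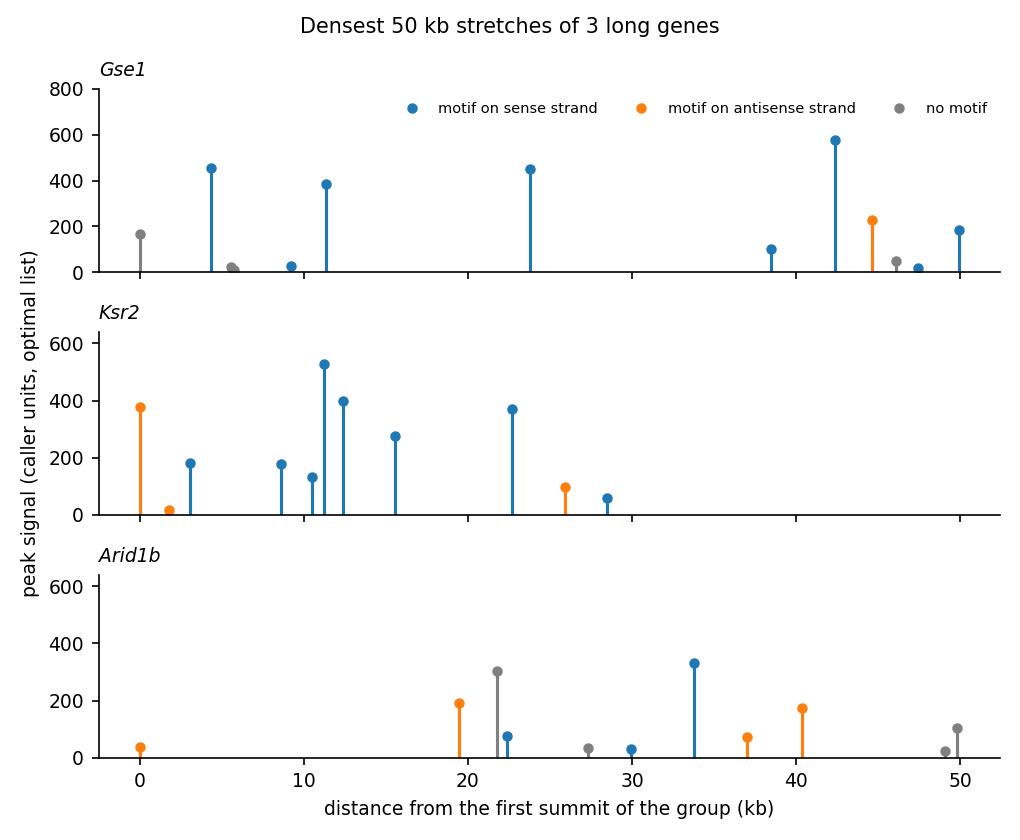
Signal of each peak in the optimal list (y axis, caller units, from 0) against its distance in kb from the first summit of the group (x axis), for the densest 50 kb of Gse1, Ksr2 and Arid1b, with colour giving the motif strand relative to the gene. Ksr2 shows 8 of 11 peaks with a sense motif, and in Arid1b the strands are mixed.

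Density and motif strand both varied with the position along the gene body. Each body was divided into 10 equal segments from 5′ to 3′, with eligible sequence counted in each. Density ran between 15.4 and 19.2 per Mb in segments 1 to 9 and was 24.4 per Mb (95% Poisson interval 22.5 to 26.3) in the last. The last segment had 23.7 and 24.6 per Mb in the replicate lists, and a median signal of 91.7 where the others ran from 59.2 to 74.2. The rule keeps peaks 10 kb from a TSS, which clears the 5′ end, but it sets no distance from the 3′ end.

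Over the whole gene body motifs showed little strand bias, while the 2 ends were biased in opposite directions. Of 3242 motif-bearing peaks outside chromosome 1, 1566 (48.3%, 95% exact binomial interval 46.6 to 50.04%) had the motif on the sense strand. In segment 1, 176 of 288 were sense, or 61.1% (55.2 to 66.8%), and in segment 10, 167 of 449, or 37.2% (32.7 to 41.9%). The replicate lists gave 60.6% and 58.4% in segment 1 and 38.0% and 37.3% in segment 10. Motifs near either end thus more often pointed into the gene body than out of it. Among peaks of signal 200 or more the shares were 61.4% of 70 and 37.4% of 174. The same slope was present in genes of 100 to under 300 kb, from 58.9% (50.3 to 67.1%) to 34.96% (30.2 to 39.9%), so it is not particular to the longest genes.

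**Figure D4:**
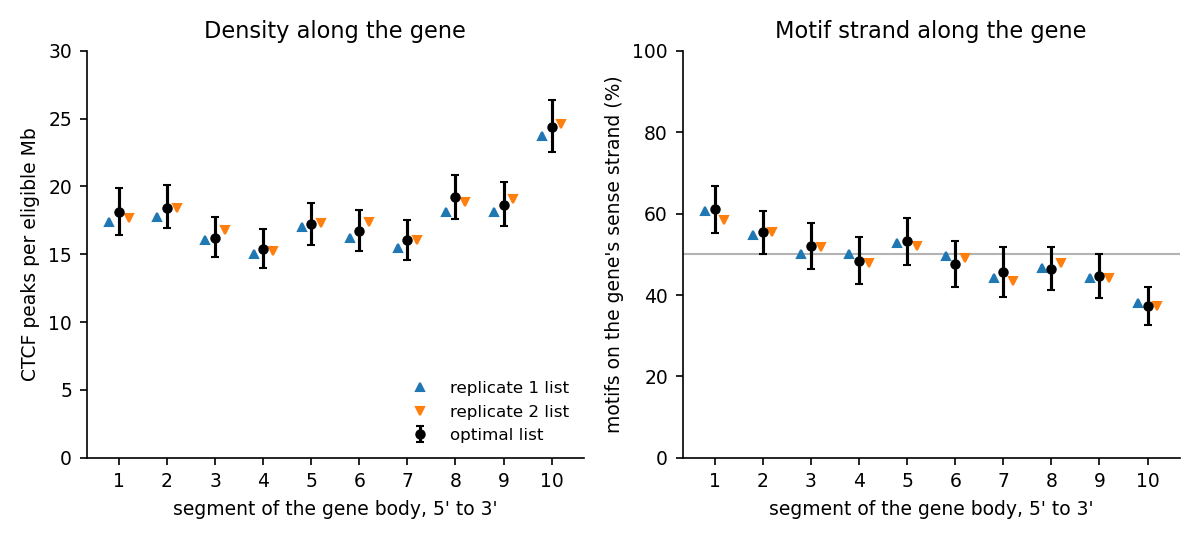
Left, peaks per eligible Mb (y axis, from 0) in each of 10 equal segments of the gene body from 5′ to 3′ (x axis), and right, the percent of motifs on the sense strand, with a grey line at 50%. Black points are the optimal list with 95% intervals for counting error, triangles are the replicate lists, and the sense share goes from 61.1% in segment 1 to 37.2% in segment 10.

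The relative strand of neighbouring motifs changed with their distance. Among 431 neighbouring motif-bearing pairs under 5 kb apart, 18.6% (95% exact binomial interval 15 to 22.6%) pointed toward each other, 23.9% (19.9 to 28.2%) away from each other, and 57.5% (52.7 to 62.3%) the same way. Among 616 pairs at 5 to 20 kb, 20.5% were convergent and 27.9% divergent. At 20 to 100 kb, 23.9% of 770 pairs were convergent (20.9 to 27.1%) and 22.2% divergent (19.3 to 25.3%), so the shares were alike. Among 285 pairs more than 100 kb apart convergent pairs were the more frequent, with 28.8% convergent (23.6 to 34.4%) and 17.5% divergent (13.3 to 22.5%). Pairs of the same direction made up 51.6% (47.6 to 55.6%) at 5 to 20 kb and 53.9% (50.3 to 57.5%) at 20 to 100 kb. Beyond 100 kb they made up 53.7% (47.7 to 59.6%). The intervals at 5 to 20 kb and beyond 100 kb include 50%. The sense share also fell along the gene body, from 61.1% in segment 1 to 37.2% in segment 10. The part of this slope in the shares of convergent and divergent pairs was not tested.

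Pooled density was also compared by intron order and length. Leaving out the 6 gene models with 6 or more coding genes inside, first introns of the longest transcript of each gene held 15.2 peaks per Mb (95% Poisson interval 14.2 to 16.2), second introns 16.5 and later introns 17.7 (17.1 to 18.4). Introns of 100 kb or longer had 14.8 per Mb and shorter ones 19.7. Of 249 introns of 200 kb or longer, 37 held no peak, which together made 10.4 Mb of eligible sequence.

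The peaks themselves ranged from weak to among the strongest. Signals ran from 5.06 to 650.7, with a median of 67.0 and quartiles of 32.8 and 195.6. Medians were 70.9 in genes of 100 to under 300 kb, 83.5 in genes under 100 kb and 85.3 outside coding genes. Long-gene peaks thus had the lowest median of these classes, though close to that of genes of 100 to under 300 kb. Of them, 24.6% had a signal of 200 or more, against 25.7%, 29.3% and 31.6%. In the full replicate lists the long-gene medians were 38.5 and 28.8, and those of genes of 100 to under 300 kb 41.2 and 30.8. Those of the class outside coding genes were 49.3 and 37.1, which is the same order.

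The CTCF motif was present in 3242 of 4604 peaks outside chromosome 1, or 70.4% (95% exact binomial interval 69.1 to 71.7%). A match was a score over the threshold that 1% of control windows pass, on either strand and no more than 50 bp away from the summit. Over all autosomal optimal peaks outside chromosome 1 the share was 68.2%, so the long-gene share is near this background. It was 71.6% in genes of 100 to under 300 kb, 77.2% in genes under 100 kb and 74.8% outside coding genes, which makes the long-gene share the lowest of these 4 classes. In windows 1 kb from the same summits it was 1.28%. Of the matches, 78.3% lay with their centre within 10 bp of the summit. The share rose steadily with signal, from 46.4% of peaks under 25 to 69.7% between 50 and 100 and 97.05% at 400 or more. Peaks with the motif had a median signal of 92.7 and those without 38.3, and the motif-bearing ones more often lay in masked repeats, 25.9% against 8.37%. In all, 20.7% of summits lay in a masked repeat, against 26.3%, 31.5% and 22.6% in the other classes.

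**Figure D5:**
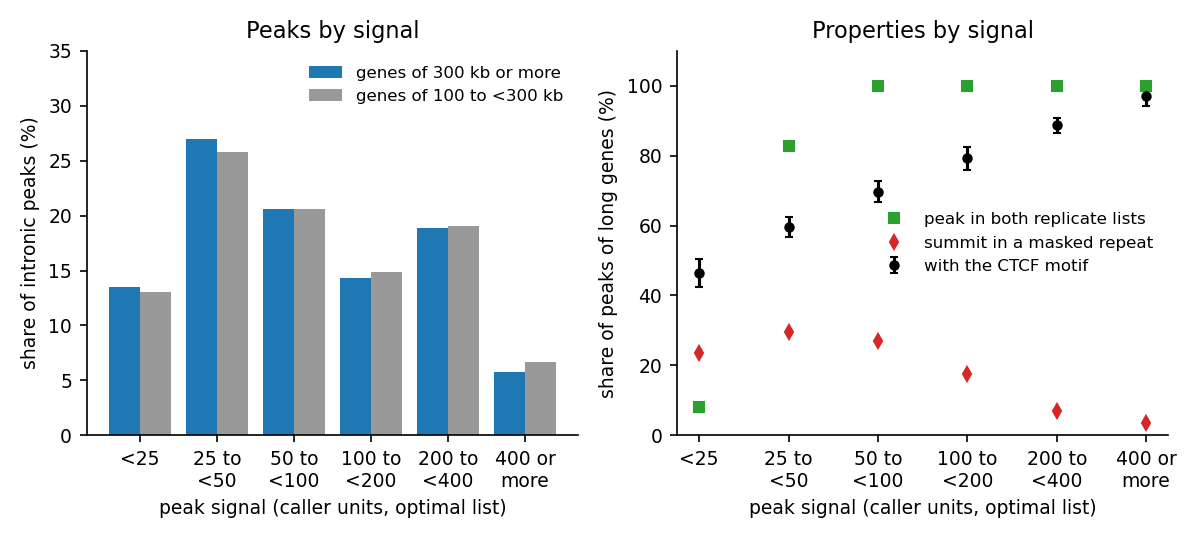
Left, the percent of intronic peaks (bars from 0) in 6 classes of signal (x axis, caller units) for genes of 300 kb or more and of 100 to under 300 kb. Right, for the long genes, the percent of each class with the CTCF motif (with 95% binomial intervals), with a peak in both replicate lists and with the summit in a masked repeat. The motif share goes from 46.4% to 97.05%.

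The replicates shared most of these peaks. A peak with a summit within 100 bp was found in the replicate 1 list for 4410 of 4935 and in the replicate 2 list for 4408. Both lists held 4092, or 82.9% (95% exact binomial interval 81.8 to 84.0%), and neither held 209. Over all autosomal optimal peaks both lists held 83.1%, so this share too is near the background. In the other classes, in the same order as above, it was 84.1%, 85.1% and 85.3%. The shared part went up with signal, with 8.12% of peaks under 25, 82.7% of those from 25 to 50 and 99.9% of those from 50 to 100 in both lists. The replicate lists were cut by signal, so weak peaks drop out of them by construction, and the full lists both held 98.6% of all 4935. For these 4867 peaks the 2 signals were ranked alike (Spearman's rho 0.942 across peaks, which are not independent replicates).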

How the data were processed

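CTCF ChIP-seq of newborn stomach was deposited as 5 mm10 peak lists: relaxed lists of each replicate and of both together, and the optimal and conservative lists after IDR. The deposited signal is the authors' peak-caller value, which is not on 1 scale across lists. Summits were placed from the deposited offset, in bp after the first base of the peak. The assembly is mm10, per the labels. Nothing used here names the aligner, the peak caller or the IDR threshold. Read numbers were not used, so depth is unknown, and intervals cover counting error only.

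Genes came from GENCODE M21 and sequence from GRCm38 of the same assembly, whose chromosome lengths match. Analyses used Python 3.11.15 with scipy 1.17.1 (intervals), numba 0.67.0 (motif scan), pandas 2.3.3 and numpy 2.4.6 (tables) and matplotlib 3.10.9. Replicate lists were cut to the 74283 strongest peaks each, the number of optimal peaks on chromosomes. A 19-position CTCF matrix was learnt from the 1000 strongest peaks of chromosome 1, which motif shares leave out, with the threshold passed by 1% of 9200 windows 1 kb from summits. The code was tested on simulated data. A peak in several gene bodies counted once in totals and once for each gene, which concerned 65 peaks.

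Genes were named by rule: the 8 with most peaks, the 8 of highest and the 8 of lowest density above 0, the 10 with none and most eligible sequence, the genes of the 10 strongest peaks, the extremes of each list, the 3 longest stretches (1 of which is not reported here) and the 3 densest 50 kb. Other genes with none (Cntn6, Epha3, Epha5, Cntnap4, St18, Dock3, Ube2e2) were named after their values were seen, or as list extremes. Gene set, lists and comparisons were chosen with earlier results of these data known. Alternatives were other peak lists, thresholds and gene sets, and each replicate left out. Control libraries and the X chromosome are outside the rule.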

Additional observations from a re-analysis of the deposited data

Results flagged for a closer look

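Signal also appeared in data that the comparisons above did not use. In the relaxed list of both replicates together, the 19 genes with no optimal peak held 168 peaks in eligible sequence, of which 20 of 155 outside chromosome 1 (12.9%, 95% exact binomial interval 8.06 to 19.2%) held the CTCF motif. In windows 1 kb from the summits of long-gene peaks the share was 1.28%. Nkain3 had 5 of the 20, with a highest signal of 19.3, and Zfp804b had 1, of signal 19. Relaxed peaks more than 300 bp from any optimal summit in all long genes held the motif in 13.1% (12.6 to 13.6%) of 17274 cases, so the genes with none were not set apart by this share.

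The rule leaves out the X chromosome, where 26 coding genes of 300 kb or more held 97 optimal peaks in eligible introns, or 6.60 per Mb. Their median GC content was 37.7% and their median number of motif matches 60.4 per Mb. Autosomal long genes of the lowest GC range, up to 38.7%, had a like density of 6.50 per Mb, though some X genes lay above that range. Dmd, the dystrophin gene, had 11 peaks in 2187 kb (5.03 per Mb), Gpc3, a glypican gene, had 9 (27.5 per Mb), and Rtl4, a gene derived from a retrotransposon, had none. These 3 genes were picked after their values were seen. The labels give no sex, so the number of X copies is unknown.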

How the results depend on the processing

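Values below are those that moved by more than the SD between the replicate lists, for the median signal and the share in both replicates those outside the 95% interval, and for the number of genes with none those beyond 1.5 times. With a replicate left out, the range is given in any case. In the optimal, conservative and both replicate lists, long-gene introns had fewer peaks per Mb than both classes of shorter genes. The conservative list gave 17.35 peaks per Mb, a median distance of 22.6 kb and 87.6% of peaks in both replicate lists. Leaving out each replicate in turn gave 17.31 to 17.97 per Mb, 20 to 22 genes with none, median distances of 22.07 to 22.74 kb, motif shares of 69.6 to 71.0% and sense shares of 47.94 to 48.25%. The stronger 50% of the optimal peaks (2285 peaks in long genes) gave 8.26 per Mb, 67 genes with none, a median signal of 212.8, a median distance of 37.2 kb, a motif share of 84.5% and 99.96% in both lists. Genes of at least 500 kb (2603 peaks) gave 15.4 per Mb, 26.0 kb, a motif share of 71.9% and a sense share of 49.15%. They included 5 genes with none, a count from a smaller set of genes that is not comparable with the full set. More than 20 kb from a TSS, the values were 17.2 per Mb, 23.0 kb and 47.2% sense. The whole gene body as denominator gave 16.01 per Mb. A motif threshold passed by 0.1% of control windows gave a motif share of 42.85% and a sense share of 47.7%. Of 2 alternatives chosen after seeing the data, leaving out the 6 gene models that contain 6 or more other coding genes gave 17.1 per Mb and 23.0 kb. Using only the start of each coding gene gave 18.8 per Mb, 20.3 kb and 48.65% sense. Of 72 values under alternatives, 42 stayed within the spread or within 1.5 times for counts. With a replicate left out, the values are those of the other replicate list, and these same lists set the SD. The 72 also include numbers of peaks beside densities. The tally is thus a count and not a measure of robustness. No paired analysis was possible because there is 1 group and no result comes from a test between groups.

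Limits: 2 libraries, labelled biological replicates but with the same donor and tissue identifiers, no read depth, no controls, and bulk tissue. Gene bodies are those of 1 annotation, and a few models join many genes.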
